A study of Homo sapiens with 4 samples.

Results

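Serpins and plasminogen activators were followed in SK-N-BE(2), a cell line from a human neuroblastoma in which MYCN is amplified, as 9 genes of 64252 rows in the count table: SERPINE2, SERPINI1, PLAT, PLAU, PLAUR, SERPINF1, SERPINH1, SERPINB6 and SERPINB9. They were selected on gene family, by symbol, after results of this comparison were known. Each symbol is on 1 row of the table, so the rule of keeping the row with the highest mean count removed nothing. All the cells are SK-N-BE(2), transfected with a control short hairpin RNA in 2 libraries (shControl) and with one that targets CDK5RAP3 in the other 2 (shCDK5RAP3). The CDK5RAP3 protein works with UFL1, the ligase for the small modifier UFM1, on the endoplasmic reticulum (ER). The comparison asks which transcripts differed when CDK5RAP3 mRNA was lowered. The labels do not say how many hairpins were used, how long after transfection the cells were harvested, or whether the replicates were separate cultures, so p-values measure only the spread between these libraries.

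Serpins share a fold in which an exposed loop serves as bait for a protease. The protease cuts the loop, is dragged across the serpin and stays bound and inactive. Some serpins have kept the fold and no longer inhibit proteases. The plasminogen activators PLAT (tissue type, tPA) and PLAU (urokinase type, uPA) cut plasminogen to plasmin, which degrades fibrin and matrix proteins. PLAUR holds PLAU at the cell surface, and SERPINE2 and SERPINI1 are among the serpins that inhibit the activators. In nervous tissue this system is known for its part in cell migration, axon growth and synaptic plasticity.

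The regulatory sequence that could be read for these genes is shown first, because SERPINH1 is a known heat-shock gene and its changes below run against those of other heat-shock genes. RefSeq promoter windows (GRCh38.p14, 250 bases before the start) were found for 7 of the 9 genes, not for SERPINF1 or PLAT. Both strands were searched for the heat-shock element core GAANNTTC, its inverted form TTCNNGAA, the AP-1 site TGAGTCA and the E-box CACGTG. Capitals mark the matches, and each line gives 29 bases, 5′ to 3′ on the strand of the gene.
SERPINH1, chr11:75562169-75562197, plus strand: ttccaactTTCCAGAAGTTTCtcgggacg
SERPINB6, chr6:2971789-2971817, minus strand: ttTTCTGGAAacaggccagcattcagtct
PLAUR, chr19:43670338-43670366, minus strand: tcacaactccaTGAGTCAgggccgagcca
SERPINE2, chr2:224031548-224031576, minus strand: tgatgctaggtCACGTGgtcacatgccct

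In SERPINH1 the capitals hold an overlapping pair of matches, TTCCAGAA beginning 76 bases before the RefSeq start and GAAGTTTC beginning 71 bases before it. SERPINB6 holds TTCTGGAA at the far end of 1 of its 4 windows, 248 bases before the start that this window belongs to. The AP-1 letters of PLAUR begin 186 bases, and the E-box of SERPINE2 87 bases, before the start. Of the 27305 genes in the promoter table, 7.05% hold GAANNTTC, 8.12% TTCNNGAA, 5.19% TGAGTCA and 7.73% CACGTG in at least 1 window of this length. Both windows of PLAU and those of SERPINB9 and SERPINI1 hold none of these letters. The same is true of the other windows of SERPINH1, SERPINB6 and SERPINE2. In GENCODE 29 (GRCh38) transcripts of SERPINH1, SERPINB6 and PLAUR begin further upstream, so the 29 bases shown for them lie in or reach into an annotated 5′ UTR. Those of SERPINE2 lie inside the gene and outside its annotated UTRs. The windows of 1 gene can belong to different start sites, and which of them these cells use was not measured. A match is a run of letters and no evidence of binding.

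The annotated 3′ UTRs were searched for AACACCT and ACACCTA, a pair of 7-base words picked from an earlier analysis of these same counts, so that a match supports nothing. They are shown because they overlap by all but the last or first base and because 2 of the 9 genes hold 1 of them.
SERPINH1, chr11:75572453-75572481, plus strand: tctgacactaaAACACCTcagctgcctcc
SERPINB9, chr6:2887400-2887428, minus strand: ttgtcattcatACACCTActtttctgctt

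The SERPINH1 word begins at base 381 of a 3′ UTR of 700 bases and the SERPINB9 word at base 2746 of one of 2897 bases. The other 7 genes hold neither word, in 3′ UTRs of 128 to 932 bases. Among 13564 tested genes with an annotated 3′ UTR, whose median length is 1382 bases, 10.9% hold AACACCT, 7.53% hold ACACCTA and 15.3% hold either.

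Total counts ranged from 28653689 to 30138393 per library, so depth differed little between groups, and a count of 0 allows up to 3 counts, about 0.101 to 0.105 CPM (counts scaled to TMM-adjusted library size). The target, CDK5RAP3, had 2529 and 2866 counts in shControl and 1669 and 1689 in shCDK5RAP3. It fell to 62.1% of control (log2 change -0.69 ± 0.08 SE, edgeR adjusted p = 0.000163). Neuroblastoma identity was checked with 9 markers such as DBH, TH and MYCN: all were expressed, and 7 fell, 0 rose and 2 did not pass, with a summed level of 7374 and 7900 CPM in shControl and 4573 and 4725 CPM in shCDK5RAP3. Among all 18775 tested genes 21.8% fell and 19.7% rose past an edgeR adjusted p of 0.05. Of 12 markers of other cell types 10 were tested, and 5 fell, 0 rose and 5 did not pass. Their sum was 443 and 421 CPM against 138 and 132 CPM. The stromal genes LUM, DCN and PDGFRB made up most of it and were among the 5 that fell. The epithelial marker KRT5 was at 0 in every library. EPCAM, also epithelial, had 126 and 126 counts in shControl and 58 and 79 in shCDK5RAP3 and fell (edgeR adjusted p = 0.0135). Endothelial CDH5 had 17 and 11 counts in shControl and 0 and 0 in shCDK5RAP3. The endothelial marker VWF had 35 and 29 against 29 and 47 and did not pass, and PECAM1, with 0 and 0 against 1 and 0, was not tested. The part of these marker changes in the values below was not tested. In bulk libraries, fewer cells of a type and less RNA per cell cannot be told apart.

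All 9 genes passed the filter on low counts. In the shCDK5RAP3 libraries 6 were lower and 1 higher past an edgeR adjusted p of 0.05, and PLAT and PLAUR did not pass. Of all 18775 tested genes 41.5% passed, 21.8% lower and 19.7% higher. The groups did not overlap in 8 of the 9 genes, against 71.4% of all tested genes. PLAUR is among the 8 only by 5.676 CPM in shControl replicate 2 against 5.679 CPM in shCDK5RAP3 replicate 2. The median log2 change of the 9 was -1.11, against -0.0034 over all tested genes. Since the genes were chosen with these changes in view, nothing is read from the counts, and their changes are given as a description with no test.

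**Figure D1:**
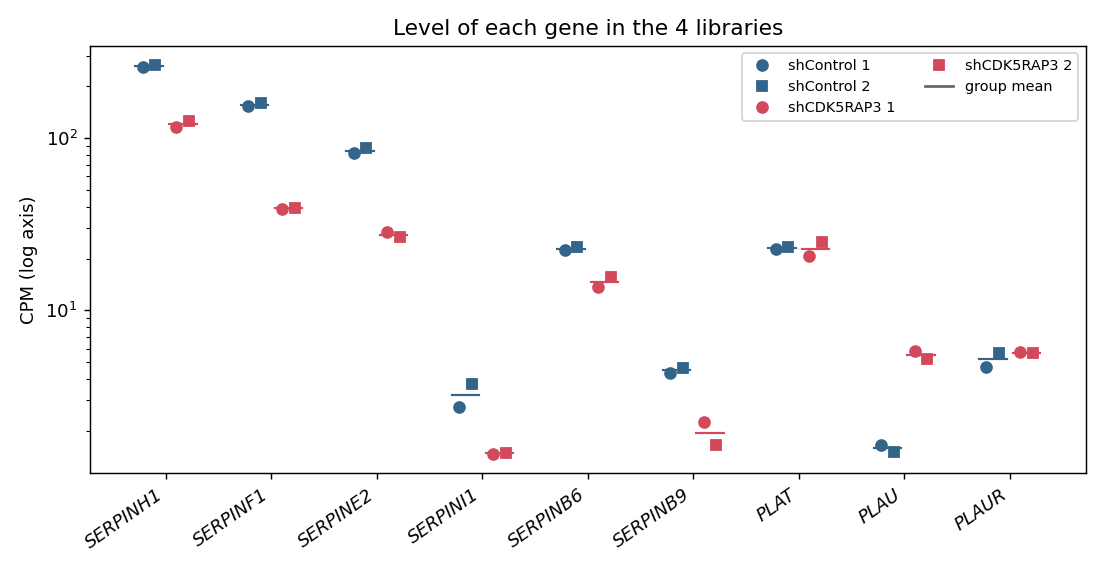
Level of each of the 9 genes in CPM (log axis) in the 2 shControl (blue) and 2 shCDK5RAP3 (red) libraries; points are libraries and short lines group means. The red points lie below the blue ones for the 6 serpins and above them for PLAU, and the PLAT points overlap.

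SERPINE2, an inhibitor of both activators, fell to 32.6% of its control level. SERPINE2 (protease nexin 1, ENSG00000135919, GRCh38 chr2:223975112-224039319, minus strand) is secreted, binds heparan sulphate at cell surfaces and inhibits thrombin, PLAU and PLAT. It had 2365 and 2544 counts in shControl and 815 and 787 in shCDK5RAP3. Both control libraries were high and both knockdown libraries low, with no overlap. In CPM this was 84.6 ± 4.07 against 27.6 ± 1.37 (SD, n = 2 each), a log2 change of -1.62 ± 0.08 SE. Pairing every shCDK5RAP3 library with every shControl library gave 30.4% to 34.9%.

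SERPINI1 (neuroserpin, ENSG00000163536, chr3:167735243-167825568, plus strand) is the serpin of neurons and their secretory vesicles, and PLAT is its main target. It had 80 and 108 counts in shControl and 42 and 44 in shCDK5RAP3. The knockdown libraries were nearly equal and both below the controls, which differed 1.34-fold from each other. Its level was 3.24 ± 0.672 against 1.48 ± 0.0115 CPM (SD, n = 2 each), 45.6% of control, a log2 change of -1.13 ± 0.27 SE. At these counts the call rests on few reads. It was lost when any of 3 libraries was left out (edgeR adjusted p = 0.0529 without shControl replicate 2, 0.0584 without shCDK5RAP3 replicate 1, 0.0768 without shCDK5RAP3 replicate 2), and without a filter on low counts (0.0553).

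Of the activators, PLAU was higher in the knockdown and PLAT did not pass. PLAU (urokinase, ENSG00000122861, chr10:73909177-73917497, plus strand) had 48 and 44 counts in shControl and 165 and 155 in shCDK5RAP3. The groups lay far apart and the libraries within each close together. The level went from 1.59 ± 0.103 to 5.51 ± 0.382 CPM (SD, n = 2 each), 3.47-fold, a log2 change of 1.79 ± 0.22 SE, and 3.16-fold to 3.82-fold over pairs of libraries. The antisense gene C10orf55, which overlaps PLAU, had 0 and 2 counts in shControl and 4 and 4 in shCDK5RAP3. Whether the counting used strand was not given in the sources used here, so reads of these genes cannot be told apart.

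PLAT (tissue plasminogen activator, ENSG00000104368, chr8:42175233-42207724, minus strand) had 661 and 680 counts in shControl and 592 and 737 in shCDK5RAP3. The lowest and the highest of these 4 counts were both in knockdown libraries, on either side of the controls. The means were 23.1 ± 0.383 and 22.8 ± 2.95 CPM (SD, n = 2 each), 98.7% of control, a log2 change of -0.02 ± 0.11 SE that did not pass. Pairs of libraries gave 88.6% to 109%, and the sign changed in 2 of 12 alternative settings.

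PLAUR (the urokinase receptor, ENSG00000011422, chr19:43646095-43670547, minus strand) is tethered to the membrane by a lipid anchor. It had 136 and 165 counts in shControl and 163 and 168 in shCDK5RAP3. In CPM the libraries were at 4.70 and 5.68 in shControl and 5.71 and 5.68 in shCDK5RAP3, so that 1 control library sat with the knockdown libraries and the other below them. The log2 change of 0.13 ± 0.19 SE did not pass. This was a smaller change than the 1.79 of its ligand PLAU, and the difference between the genes was not tested.

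**Figure D2:**
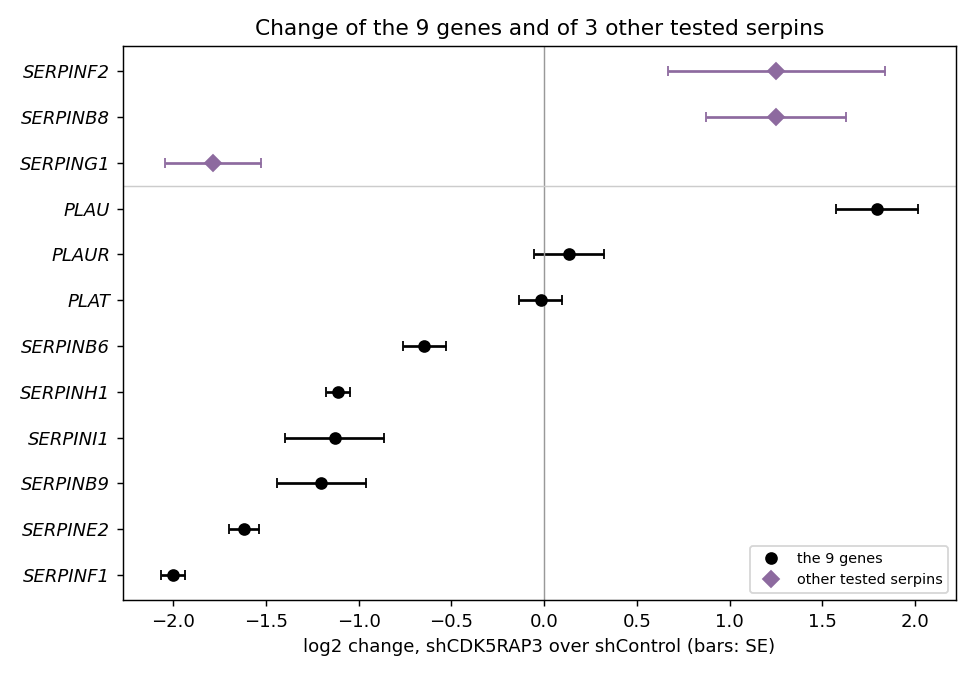
Log2 change, shCDK5RAP3 over shControl, with its standard error (bars) for the 9 genes (black circles) and for 3 other serpins that passed the count filter (purple diamonds). SERPINF1 is lowest at -2.0, PLAU highest at 1.79, and PLAT and PLAUR lie near 0.

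SERPINF1 was the gene of the 9 with the steepest fall. SERPINF1 (pigment epithelium-derived factor, PEDF, ENSG00000132386, chr17:1761959-1777574, plus strand) is a secreted, non-inhibitory serpin known to restrain blood vessel growth and to promote neuronal differentiation, also in neuroblastoma. It had 4434 and 4652 counts in shControl and 1107 and 1170 in shCDK5RAP3. The groups did not overlap and the libraries within each agreed closely. The level was 157 ± 4.77 against 39.2 ± 0.548 CPM (SD, n = 2 each), 25% of control, a log2 change of -2.0 ± 0.07 SE. Over pairs of libraries it was 24.2% to 25.8%. Counting from the largest fall among all tested genes, SERPINF1 came at place 316.

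SERPINH1 (HSP47, ENSG00000149257, chr11:75562056-75572783, plus strand) also does not inhibit proteases: it resides in the ER, binds folded procollagen and leaves it in the Golgi. It had 7478 and 7701 counts in shControl and 3316 and 3732 in shCDK5RAP3, the most reads of the 9 genes in every library. Control libraries were high and knockdown libraries low. The level was 262 ± 4.53 against 121 ± 7.07 CPM (SD, n = 2 each), 46.3% of control (43.8% to 48.8% over pairs), a log2 change of -1.11 ± 0.07 SE.

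A processed copy of this gene moved the other way. SERPINH1P1 (chr9:34318407-34319655, plus strand) had 3 and 6 counts in shControl and 29 and 24 in shCDK5RAP3 (log2 change 2.52 ± 0.56 SE, edgeR adjusted p = 0.00625), a call lost without shCDK5RAP3 replicate 1 (0.0741) or shCDK5RAP3 replicate 2 (0.0554). These counts equal 0.0401% to 0.875% of those of SERPINH1. The handling of reads that map to several places was not given in the sources used here, so the division of reads between gene and copy is uncertain, and its part in the values of either was not tested.

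The clade B serpins stay inside the cell. SERPINB6 (ENSG00000124570, chr6:2948159-2972165, minus strand) is an inhibitor of cathepsin G and of trypsin-like proteases. It had 647 and 679 counts in shControl and 390 and 460 in shCDK5RAP3. Its level was 22.9 ± 0.701 against 14.6 ± 1.34 CPM (SD, n = 2 each), 63.9% of control, a log2 change of -0.65 ± 0.12 SE. This was the smallest change among the 6 serpins, and the groups still did not overlap (58.5% to 69.5% over pairs).

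SERPINB9 (ENSG00000170542, chr6:2887266-2903280, minus strand) inhibits granzyme B, the protease with which cytotoxic lymphocytes kill their targets. It had 126 and 134 counts in shControl and 64 and 49 in shCDK5RAP3. The knockdown libraries differed 1.35-fold, the widest spread within a group among the 9 genes, and both lay below the controls. The level was 4.48 ± 0.180 against 1.95 ± 0.414 CPM (SD, n = 2 each), 43.5% of control, a log2 change of -1.20 ± 0.24 SE. Without shCDK5RAP3 replicate 2 its call was lost (log2 change -1.0, edgeR adjusted p = 0.0540).

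Levels were compared between genes as CPM per kilobase, using the median length of the APPRIS principal transcripts. In shControl the order was SERPINH1 (114 ± 1.97 CPM per kb, SD, n = 2), SERPINF1 (101 ± 3.08), SERPINE2 (38.6 ± 1.85), SERPINB6 (15.3 ± 0.469), PLAT (8.72 ± 0.144), PLAUR (3.35 ± 0.445), SERPINI1 (1.71 ± 0.354), SERPINB9 (1.09 ± 0.0436) and PLAU (0.684 ± 0.0444). Each gene was separate from the next, the lowest library of one lying above the highest of the other. In shCDK5RAP3 the first 6 places kept this order, with SERPINB6 (9.78 ± 0.894) and PLAT (8.61 ± 1.11) no longer separate. PLAU (2.37 ± 0.164) stood above SERPINI1 (0.779 ± 0.00604) and SERPINB9 (0.473 ± 0.101). With the union of all annotated exons as the length, SERPINF1 (51.0 CPM per kb) came before SERPINH1 (41.7) in shControl and PLAT (3.49) before SERPINB6 (1.73). PLAUR was then not separate from SERPINI1 above it or SERPINB9 below it, and in shCDK5RAP3 PLAT was not separate from SERPINE2 and PLAU stood above PLAUR.

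The activators made up a different mix in the 2 groups. PLAU held 7.66% and 6.88% of the summed level of PLAU and PLAT per kilobase in shControl and 24.2% and 19.4% in shCDK5RAP3 (14.0% and 12.7% against 38.5% and 32.1% by the union of exons). PLAT was thus the larger of these transcripts in all 4 libraries. SERPINE2 exceeded PLAU 52.1-fold and 61.1-fold per kilobase in shControl and 5.22-fold and 5.37-fold in shCDK5RAP3. By the union of exons it was 16.3-fold and 19.2-fold against 1.64-fold and 1.68-fold, so the level of the ratio depends on the length used. The ratio was 10.7-fold lower in the knockdown, a value in which any length shared by both groups cancels. Whether the groups differed in the transcripts they used was not measured. SERPINE2 was 4.32 and 4.52 times PLAT in shControl and 1.66 and 1.29 times in shCDK5RAP3, while by the union of exons the second knockdown library had less SERPINE2 than PLAT (0.795 times). SERPINI1 stood at 0.169 and 0.222 times PLAT in shControl and 0.0991 and 0.0834 times in shCDK5RAP3. These are ratios of transcripts, and neither protein nor activity was measured.

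**Figure D3:**
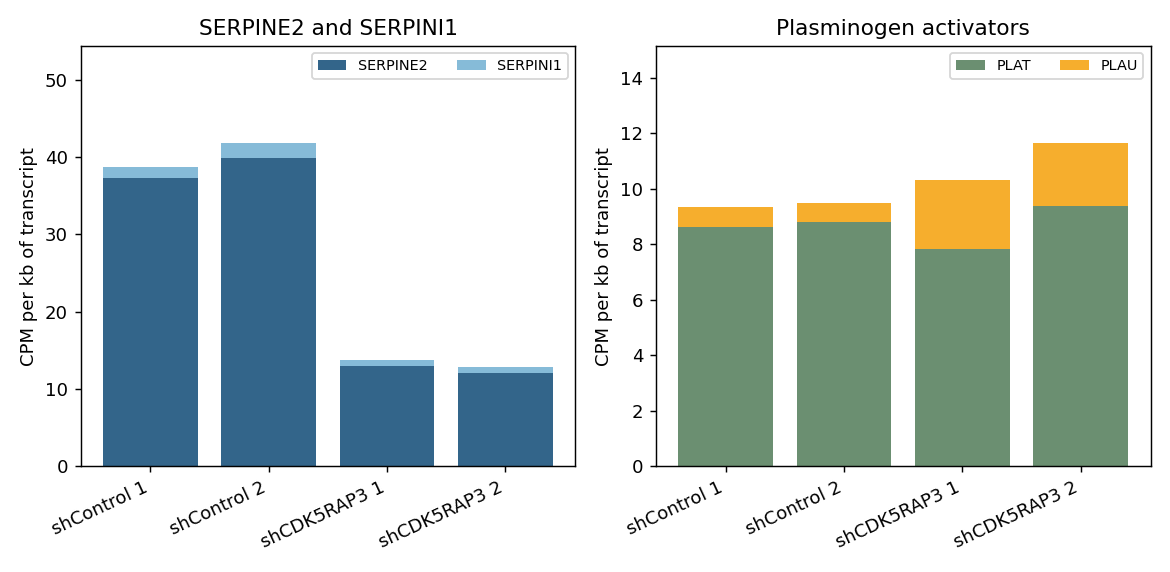
Level per library, in CPM per kb of principal transcript, of SERPINE2 and SERPINI1 (left) and of the activators PLAT and PLAU (right); each bar is 1 library, stacked by gene. SERPINE2 averages 38.6 in shControl and 12.6 in shCDK5RAP3, and the PLAU segment is larger in both knockdown bars.

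The 6 serpins together were scarcer in the knockdown, as their single values imply. Their sum was 266 and 277 CPM per kb in shControl and 99.0 and 104 in shCDK5RAP3. SERPINF1 went from 37.2% and 37.3% of this sum to 25.3% and 24.5%, while SERPINH1 went from 42.2% and 41.6% to 51.0% and 52.7% although its own level was lower. SERPINB6, with the smallest fall, went from 5.62% and 5.64% to 9.23% and 9.99%.

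**Figure D4:**
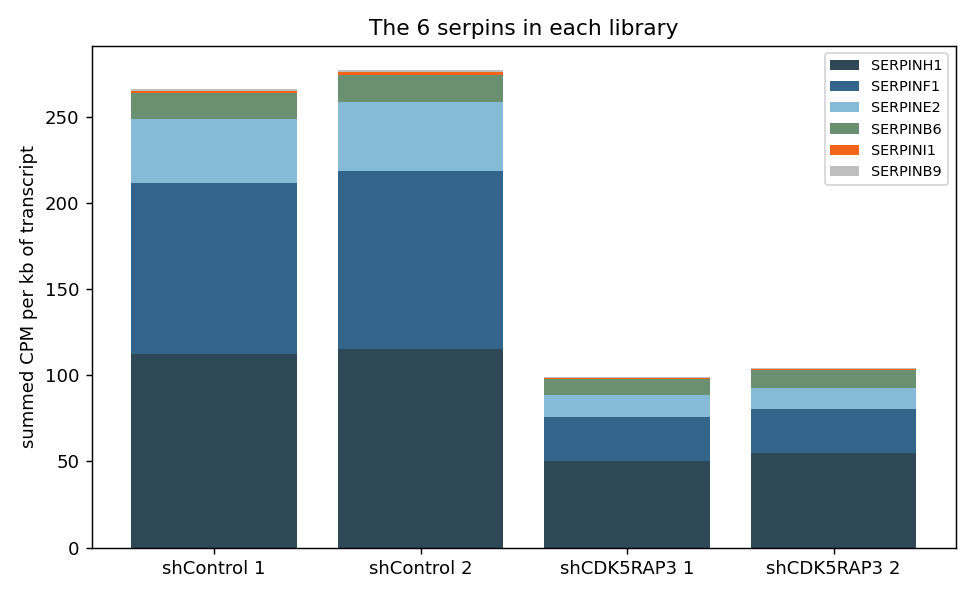
Summed CPM per kb of principal transcript of the 6 serpins in each library, stacked by gene. The bars reach 266 and 277 in shControl and 99.0 and 104 in shCDK5RAP3, and SERPINH1 and SERPINF1 are the largest segments in all 4.

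Of a list of 29 other serpins 3 passed the count filter, and 18 had 0 counts in every library. Of the 3, SERPINB8 rose, SERPING1 fell and SERPINF2 did not pass (median log2 change 1.25, against -0.0034 over all tested genes). Of all tested genes 41.5% passed. SERPING1, the inhibitor of complement C1 and of kallikrein, had 163 and 133 counts in shControl and 35 and 51 in shCDK5RAP3 (log2 change -1.79 ± 0.26 SE, edgeR adjusted p = 0.000627). SERPINB8, an intracellular inhibitor of furin, had 26 and 15 against 51 and 47 (log2 change 1.25, edgeR adjusted p = 0.0260). Its call was lost with DESeq2 (0.120), without a filter (0.107) and without any of shControl replicate 2 (0.126), shCDK5RAP3 replicate 1 (0.127) or shCDK5RAP3 replicate 2 (0.109). SERPINF2, the inhibitor of plasmin, had only 5 and 7 against 14 and 15 counts (log2 change 1.25, edgeR adjusted p = 0.119).

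Plasminogen itself (PLG) had 0 counts in all 4 libraries. Of 13 proteases and non-serpin inhibitors of the plasmin system, PLG among them, 5 were tested. Of these 0 rose, 1 fell and 4 did not pass (median log2 change -0.17), where 41.5% of all tested genes passed. F12, coagulation factor XII, fell by 0.68 on the log2 scale (edgeR adjusted p = 0.00182). The protease inhibitors TFPI (0.46), SPINT1 (-0.66), SPINT2 (0.25) and RECK (-0.17) did not pass.

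All 18 genes of a list of plasminogen and urokinase receptors, integrin partners and receptors that take up serpin complexes were tested, with 2 that rose, 8 that fell and 8 that did not pass (median log2 change -0.29; of all tested genes 19.7% rose and 21.8% fell). MRC2, the collagen receptor that associates with PLAUR, had 3332 and 3119 counts in shControl and 967 and 1035 in shCDK5RAP3 (log2 change -1.69 ± 0.07 SE, edgeR adjusted p = 1.26e-06). Of the receptors that internalise complexes of activators with their serpins, SORL1 (log2 change -1.13, edgeR adjusted p = 3.13e-05) and LRP1 (-0.77, 0.000102) fell. VLDLR, another of them, rose (0.38, 0.00365), as did IGF2R (0.26, 0.0355), which binds PLAUR, and LRP8 fell (-0.63, 0.000857); these 3 were named after their values were seen. ITGAV, the alpha-v integrin chain that binds vitronectin, fell by 0.74 on the log2 scale (edgeR adjusted p = 5.47e-05). Among plasminogen receptors, named after their values were seen, ANXA2 (-0.30, edgeR adjusted p = 0.00268) and its partner S100A10 (-0.39, 0.00901) fell, and ENO1 (0.08) and PLGRKT (-0.34) did not pass. Without shCDK5RAP3 replicate 1 the calls of ANXA2 (edgeR adjusted p = 0.0717), S100A10 (0.0554) and VLDLR (0.0641) were lost, and that of S100A10 also without shCDK5RAP3 replicate 2 (0.0974) and that of VLDLR without a filter (0.0513). The IGF2R call was lost without shControl replicate 2 (0.156), shCDK5RAP3 replicate 1 (0.246) or shCDK5RAP3 replicate 2 (0.148), by library size (0.0547) and without a filter (0.227).

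SERPINH1 was set beside its clients and helpers. Of 16 collagen chains 13 were tested, with 1 that rose, 4 that fell and 8 that did not pass (median log2 change -0.22), where 41.5% of all tested genes passed. COL6A1 (-1.18, edgeR adjusted p = 8.2e-06) and COL6A2 (-0.63, 0.000175) fell and COL6A3 (0.95, 4.38e-05) rose, so the chains of collagen VI did not move together. COL1A1 fell by 0.28 on the log2 scale, at an edgeR adjusted p of 0.0498, a call lost without shControl replicate 2 (0.194), shCDK5RAP3 replicate 1 (0.0886) or shCDK5RAP3 replicate 2 (0.300), and under DESeq2 (0.0865), DESeq2 size factors (0.0570), upper-quartile factors (0.0766) and no filter (0.154). COL3A1 (-0.22, 0.0647), named after its value was seen, did not pass, but passed by library size (0.0466) and without shControl replicate 2 (0.0150). Per kilobase SERPINH1 was 20.8 and 19.3 times COL1A1 in shControl and 10.1 and 12.4 times in shCDK5RAP3, and 7.08 and 8.03 against 3.66 and 4.53 times COL3A1. The chaperone transcript was thus lower relative to these chains in both knockdown libraries.

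Of 20 other genes of collagen folding and export 18 were tested, with 3 that rose, 7 that fell and 8 that did not pass (median log2 change -0.16), beside 19.7% and 21.8% of all tested genes that rose and fell. CRTAP (-1.28, edgeR adjusted p = 2.76e-06), a subunit of the prolyl 3-hydroxylase complex, the lysyl hydroxylase PLOD1 (-1.27, 2.97e-06) and the proline isomerase FKBP10 (-0.97, 1.25e-05) fell. P4HA2, a catalytic subunit of prolyl 4-hydroxylase, rose by 0.97 (0.00331), a call lost without shCDK5RAP3 replicate 2 (0.0728) and without a filter (0.0612). KDELR2 (0.47, 0.000346) and KDELR3 (0.74, 0.00762), receptors that return ER proteins with a retrieval signal such as SERPINH1's, rose, and KDELR1 (-0.14, 0.157) did not pass; the 3 were named after their values were seen. KDELR3 missed the edgeR threshold with shCDK5RAP3 replicate 1 (0.0652) or shCDK5RAP3 replicate 2 (0.0774) left out, and with no filter (0.0680). The stromal genes LUM (-1.21), DCN (-1.73) and PDGFRB (-2.32) fell in the same libraries, and their part in these values was not tested.

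SERPINH1 differed in direction from most heat-shock genes. Of 15 of them 12 rose, 0 fell and 3 did not pass (median log2 change 0.67), beside 19.7% of all tested genes that rose. HSPH1, a nucleotide exchange factor, rose from 70.5 ± 2.10 to 155 ± 4.89 CPM (SD, n = 2 each), by 1.14 ± 0.07 (SE) on the log2 scale (edgeR adjusted p = 4.64e-06). HSPA1A (1.12) and HSPA1B (0.97), near-identical HSP70 genes whose reads may be divided uncertainly, and the HSP90 cochaperone CHORDC1 (0.91) rose as well. HSF1 (0.11), HSP90AB1 (-0.04) and BAG3 (-0.14), named after their values were seen, did not pass. The window of SERPINH1 with TTCCAGAA and GAAGTTTC shown above says nothing of whether HSF1 was bound there.

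**Figure D5:**
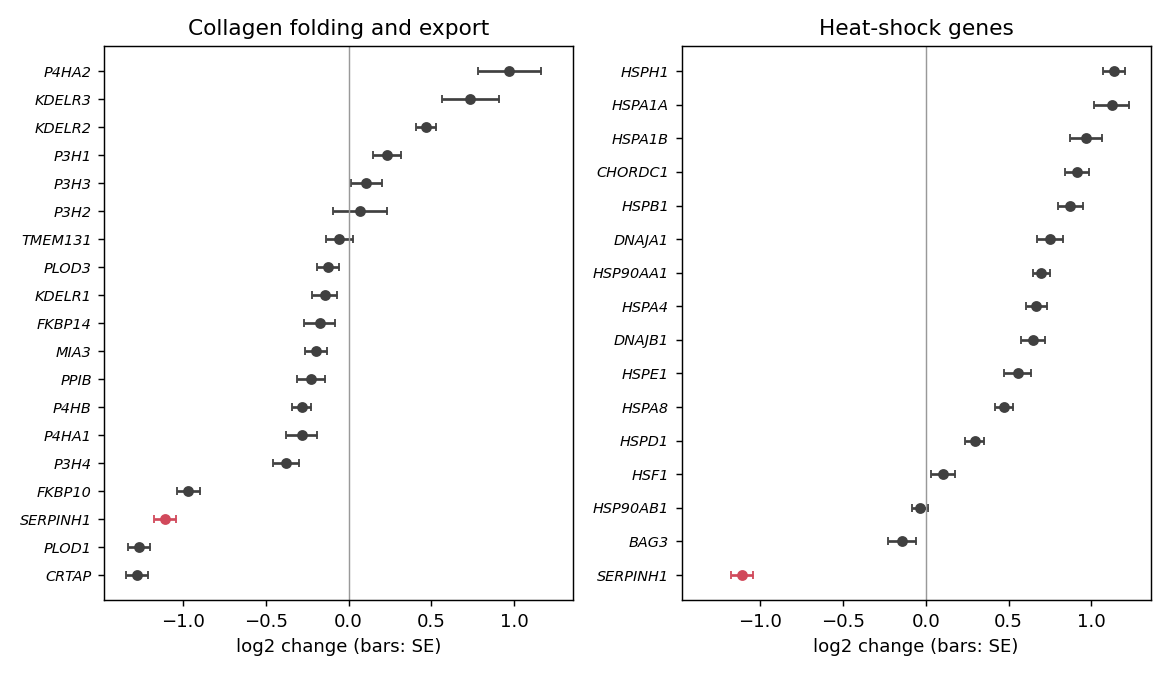
Log2 change, shCDK5RAP3 over shControl, with its standard error (bars) for SERPINH1 (red) among 18 tested genes of collagen folding and export (left) and 15 heat-shock genes (right). SERPINH1, at -1.11, lies near CRTAP, PLOD1 and FKBP10 on the left and below every heat-shock gene on the right.

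The receptors of SERPINF1 that passed showed small changes. PLXDC1 and PLXDC2, named after their values were seen, had too few counts to tell. PLXDC1 had 29 and 14 counts in shControl and 17 and 12 in shCDK5RAP3 (log2 change -0.57 ± 0.52 SE) and did not pass. PLXDC2, with 0 and 2 against 0 and 9 counts, was not tested. Of 6 listed, 5 were tested: PNPLA2, a lipase that binds SERPINF1, fell by 0.37 on the log2 scale (edgeR adjusted p = 0.00856), ATP5F1B, a subunit of ATP synthase, rose by 0.17 (0.0336), and 3 did not pass (median -0.07; 41.5% of all tested genes passed). Both calls were lost without shCDK5RAP3 replicate 1 (0.0784 and 0.0790) and without shCDK5RAP3 replicate 2 (0.0820 and 0.287), and that of ATP5F1B also without shControl replicate 1 (0.0592) or shControl replicate 2 (0.0705), by library size (0.0526) and without a filter (0.143).

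Of 9 proteases that intracellular serpins inhibit, a list not limited to targets of SERPINB6 and SERPINB9, 5 were tested. The leukocyte proteases GZMB, CTSG and ELANE, textbook targets of SERPINB9 and SERPINB6 and their relatives, had 0 counts in every library. Cathepsin L (CTSL) fell by 0.84 on the log2 scale (edgeR adjusted p = 0.000176), cathepsin K (CTSK) rose by 1.02 (0.0214) from 33 and 52 to 91 and 82 counts, and 3 did not pass (median -0.28; 41.5% of all tested genes passed). The CTSK call was lost with DESeq2 (0.0813), without a filter (0.114) and without shControl replicate 1 (0.0935), shCDK5RAP3 replicate 1 (0.120) or shCDK5RAP3 replicate 2 (0.0963).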

How the data were processed

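RNA from 4 libraries of SK-N-BE(2) cells was prepared, per the labels' protocols, with TRIzol and a TruSeq kit. The authors deposited whole-number counts per Ensembl gene, unscaled between libraries; HISAT2 2.2.0, StringTie and hg38 appear in the submitters' processing notes. Annotation release, strand setting and multi-mapping treatment were not given in the sources used here. Of 64252 identifiers 56591 matched GENCODE 29 or a gene-name table; the other 7661 held 1.82% to 1.90% of counts and stayed in.

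All 4 libraries were fitted in edgeR 4.0.16 (R 4.3.3) with TMM factors, filterByExpr by group (18775 genes kept), the quasi-likelihood test and Benjamini-Hochberg adjustment over all tested genes (threshold 0.05), without a replicate block. SE is the log2 change over the square root of F. CPM uses TMM-scaled library sizes. The procedure was run on simulated data with changes planted in a small share of genes at a fixed dispersion. These settings differ from the data, so the run checks the code and not the calls. The 9 genes and all lists were chosen with earlier results of these data known. From each list up to 4 genes are named: the largest changes among those that passed, did not overlap and had a mean log2 CPM of at least 0; every tested serpin and plasmin-system gene may be named. Some genes of these lists are not reported here, and sums and counts leave them out. The union-of-exons length was added after seeing the data. Alternatives were other scaling, filters, a robust fit, DESeq2 1.42.0, the block, and each library left out.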

Additional observations from a re-analysis of the deposited data

How the results depend on the processing

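SERPINF1, SERPINH1, SERPINE2, SERPINB6, PLAT, PLAU and PLAUR stayed on the same side of the threshold in 12 of 12 alternative settings, and the losses for SERPINI1 and SERPINB9 are given beside their values; no log2 change of a gene past the threshold changed sign. The count of the 9 genes that passed was 5 to 7 with each library left out. Among all genes 7792 passed, 4488 without a filter on low counts, 3752 to 7329 with each library left out (4836 without shCDK5RAP3 replicate 1, 3752 without shCDK5RAP3 replicate 2) and 9148 with the replicate block, under which COL3A1 also passed (edgeR adjusted p = 0.00355). Deviations of same-numbered libraries from their group means correlated at 0.111. With 2 pairs and nothing in the labels to tie the numbers, whether the libraries were paired remains unknown. Without a filter 3 collagen chains, 6 folding genes, 1 SERPINF1 receptor, 1 protease and 1 other serpin passed, with DESeq2 3 collagen chains, 1 protease and 1 other serpin, and by library size 1 SERPINF1 receptor. With each library left out, 6 to 10 receptors and partners, 5 to 10 folding genes (5 without either shCDK5RAP3 replicate), 0 to 2 SERPINF1 receptors, 1 to 2 proteases and 1 to 2 other serpins passed; the lone library left is then assumed to vary like the other group. Upper-quartile factors changed the split of calls to 4025 higher and 3842 lower. At this depth the genes with the fewest counts, PLAU, SERPINI1 and SERPINB9, have the widest standard errors of the 9 (0.22 to 0.27).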

Other observations

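The 9 genes lie at 8 places in the genome, and the nearest tested protein-coding genes on either side are described here. Of all tested genes 41.5% passed. SERPINB9 and SERPINB6 are 44.9 kb apart on chromosome 6, on the same strand, and both were lower in the knockdown. The nearest tested protein-coding genes on either side of this pair rose. WRNIP1, a DNA replication helper 100 kb from SERPINB9, rose by 0.40 on the log2 scale (edgeR adjusted p = 0.00168). NQO2, a quinone reductase 15.8 kb from SERPINB6, rose by 0.35 (edgeR adjusted p = 0.0124). SERPINI1 begins 0.304 kb from PDCD10, which lies on the opposite strand. PDCD10 had 982 and 1100 counts in shControl and 1140 and 1193 in shCDK5RAP3, a log2 change of 0.16 that did not pass (edgeR adjusted p = 0.181), while SERPINI1 was at 45.6% of control.

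SERPINF1 lies 6.69 kb from its relative SERPINF2, which had a log2 change of 1.25 (edgeR adjusted p = 0.119) against -2.0 for SERPINF1, and 1.91 kb from SMYD4 (0.30, 0.168). PLAU lies between CAMK2G, which fell by 0.22 (edgeR adjusted p = 0.0318), and VCL, the gene of the adhesion protein vinculin, which rose by 0.56 (0.000919). Both neighbours of PLAT fell, AP3M2 by 0.32 (edgeR adjusted p = 0.0109) and IKBKB by 0.50 (0.00309), beside a PLAT change of -0.02. Of the neighbours of SERPINH1, GDPD5 fell by 0.84 (edgeR adjusted p = 0.00397) and MAP6 did not pass (0.13). On either side of SERPINE2, MRPL44 (7.4 kb away, 0.13, edgeR adjusted p = 0.328) and FAM124B (339 kb away, -0.16, 0.475) did not pass. Nor did CADM4 (-0.45, edgeR adjusted p = 0.0640) and SMG9 (0.25, 0.0645) on either side of PLAUR, or GOLIM4 (-0.19, 0.0538), 183 kb from SERPINI1. Without shCDK5RAP3 replicate 2 the calls of WRNIP1 (edgeR adjusted p = 0.0559), NQO2 (0.0834), CAMK2G (0.201), VCL (0.0520), AP3M2 (0.111), IKBKB (0.0607) and GDPD5 (0.0552) were lost. Those of NQO2 (0.119), CAMK2G (0.126) and AP3M2 (0.0585) were also lost without shCDK5RAP3 replicate 1, that of NQO2 without shControl replicate 2 (0.0504), and that of CAMK2G without shControl replicate 1 (0.0868), with DESeq2 (0.0722) and with upper-quartile factors (0.0554). Without a filter NQO2 (0.101), CAMK2G (0.0637) and VCL (0.0504) did not pass, and SMYD4 passed without shControl replicate 2 (0.0286). The differences between neighbours were not tested. These neighbours were chosen by position, after the values of the 9 genes were known.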
